A study of Mus musculus with 12 samples.

Results

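The Bcl2 family genes are 10 of the 23022 genes listed in RNA-seq data of B16-F10 cells, a mouse melanoma line made to express Cas9. They were taken by name, and the list was set with earlier results of these data known. *Bcl2*, *Bcl2l1*, *Bcl2l2* and *Mcl1* were the pro-survival genes, and *Bcl2l11*, *Bid*, *Bad*, *Bmf*, *Bak1* and *Bok* the pro-death genes. The p53 targets *Bax*, *Bbc3* and *Pmaip1* were left out by the rule that set the list. There were 4 conditions with 3 libraries each: control cells, called no template control in the sample labels and non-targeting control (NTC) in the study's methods, and cells in which MBNL1 and MBNL2 were both knocked out (DKO, double knockout), each untreated or stimulated for a day with IFNg, the cytokine interferon gamma. NTC cells carried guide RNA without a target, and DKO cells a paired guide RNA against *Mbnl1* and *Mbnl2*, which encode Muscleblind-like RNA-binding proteins. The study's text names a guide RNA for NTC cells, but the column labels and a supplement legend name paired guides for both. All cells came from 1 Cas9 clone and were selected for guide integration. The study describes its edited B16-F10 populations as polyclonal, with some MBNL protein left and indels in most alleles of the single knockouts, and it also made monoclonal lines. The labels do not say which kind the sequenced DKO cells were. The labels number the replicates without saying whether they were separate cultures, so the p-values measure the spread between these libraries, which may be technical.

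Proteins of the Bcl2 family decide whether the outer mitochondrial membrane stays intact. The pro-survival proteins BCL2, BCL-XL (*Bcl2l1*), BCL-W (*Bcl2l2*) and MCL1 hold their partners in a groove on their surface. The BH3-only proteins BIM (*Bcl2l11*), BID, BAD and BMF fill that groove with a short helix, the BH3 domain, and some of them also switch on effectors such as BAK (*Bak1*), which open pores and release cytochrome c. Melanoma cells are known to lean on MCL1 and BCL-XL, and killer T cells cut BID with granzyme B.

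The core of the BH3 domain is the stretch by which the opposing sides bind, so 24 coding bases of it are shown for each gene in which a search found it. The search read the longest complete coding transcript of GENCODE M21 (GRCm38) for a leucine, any 3 residues, then glycine, alanine or serine, then aspartate over its whole length. It had 1 match in each of 9 genes and none in *Bcl2l2*, which says only that this pattern is not in that transcript. Sequences are on the coding strand from 5′ to 3′, and capitals mark the leucine codon and the last 2 codons of the motif.
Bcl2: CTCcgccgggctGGGGATgacttc
Bcl2l1: CTGagagaggcaGGCGATgagttt
Mcl1: CTGcggcgcgtgGGCGACggcgtg
Bcl2l11: CTGcggcggatcGGAGACgagttc
Bid: CTCgcccaaataGGCGATgagatg
Bad: CTCcgaaggatgAGCGATgagttt
Bmf: CTTcagtgtattGCAGACcagttc
Bak1: CTTgctctcatcGGAGATgatatt
Bok: CTGctgcgcttgGGAGATgagctg
The first 3 are pro-survival genes, the next 4 BH3-only genes and the last 2 effectors. The search itself required the closing aspartate and a glycine, alanine or serine before it, so neither is a finding about these genes. At the codon before the aspartate, *Bad* had AGC and *Bmf* GCA, and the other genes shown had a GGN codon. The stretches lie at chr1:106712578-106712601 (minus strand), chr2:152829700-152829723 (minus strand), chr3:95659436-95659459 (plus strand), chr2:128147150-128147173 (plus strand), chr6:120897292-120897315 (minus strand), chr19:6950792-6950815 (plus strand), chr2:118545103-118545126 (minus strand) and chr17:27022534-27022557 (minus strand), each within 1 exon, and at chr1:93686657-93689167 (plus strand), where an intron splits the *Bok* stretch between exons 2 and 3.

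The deposited values are TPM, each gene's share of the transcripts of its library with transcript length allowed for, so that levels of different genes can be set side by side but read depth is not kept. A gene was tested if 3 or more libraries held 1 TPM or more of it, which 11663 genes passed, and all 10 Bcl2 family genes were among them. Differences were taken on log2(TPM + 1) with limma, with p-values adjusted by the Benjamini-Hochberg method over all tested genes and a threshold of 0.05, and a difference past it is termed called. The added 1 shrinks the differences of genes at low TPM. The listed genes of a library summed to 844185 TPM or more in NTC and to 827191 TPM or less in DKO cells. *Mbnl1* and *Mbnl2* RNA was still measured in DKO cells and was lower than in NTC cells, by log2 differences of −0.41 and −0.20 in untreated cells. Of 7 melanocyte genes (*Mitf*, *Sox10*, *Tyr*, *Tyrp1*, *Dct*, *Pmel* and *Mlana*), all 7 were tested, and 7 were lower in untreated and 6 in treated DKO cells. Among all tested genes, 19.4% were called lower in untreated and 23.9% in treated DKO cells. Of 13 markers of blood, endothelial, epithelial and fibroblast cells, only *Col1a1* and *Col1a2* passed the filter, at up to 1.17 and 2.28 TPM, both higher in DKO, while *Ptprc*, *Cd3e*, *Cdh5*, *Epcam*, *Krt8*, *Krt18* and *Dcn* were listed at 0 in every library. The part of either marker list in the results below was not tested. In bulk RNA, fewer cells with a transcript and less of it per cell cannot be told apart.

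Levels of the family spanned from about 1 to over 100 TPM. Averaged over the 12 libraries, *Bak1*, the pore-forming effector, stood highest at 106 TPM, followed by *Mcl1* at 68.3, *Bcl2l1* at 30.7, *Bad* at 25.0, *Bcl2l2* at 15.9, *Bid* at 15.5, *Bcl2l11* at 4.76, *Bcl2* at 4.72, *Bmf* at 3.39 and *Bok* at 1.08 TPM. *Bak1*, *Mcl1* and *Bcl2l1* kept their places without overlap in every condition, except that *Bcl2l1* and *Bad* overlapped in untreated DKO cells. *Bcl2l11* and *Bcl2* overlapped in all 4 conditions and cannot be ordered. *Bcl2*, the gene that names the family, was thus among the 4 least abundant members, and it overlapped *Bmf* in treated NTC cells. The order of *Bcl2l2* and *Bid* turned with genotype: all 6 NTC libraries had more *Bcl2l2*, from 17.3 to 19.4 TPM against 11.1 to 13.4 TPM of *Bid*, and all 6 DKO libraries had more *Bid*, from 16.3 to 20.8 TPM against 13.1 to 14.5 TPM of *Bcl2l2*.

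**Figure D1:**
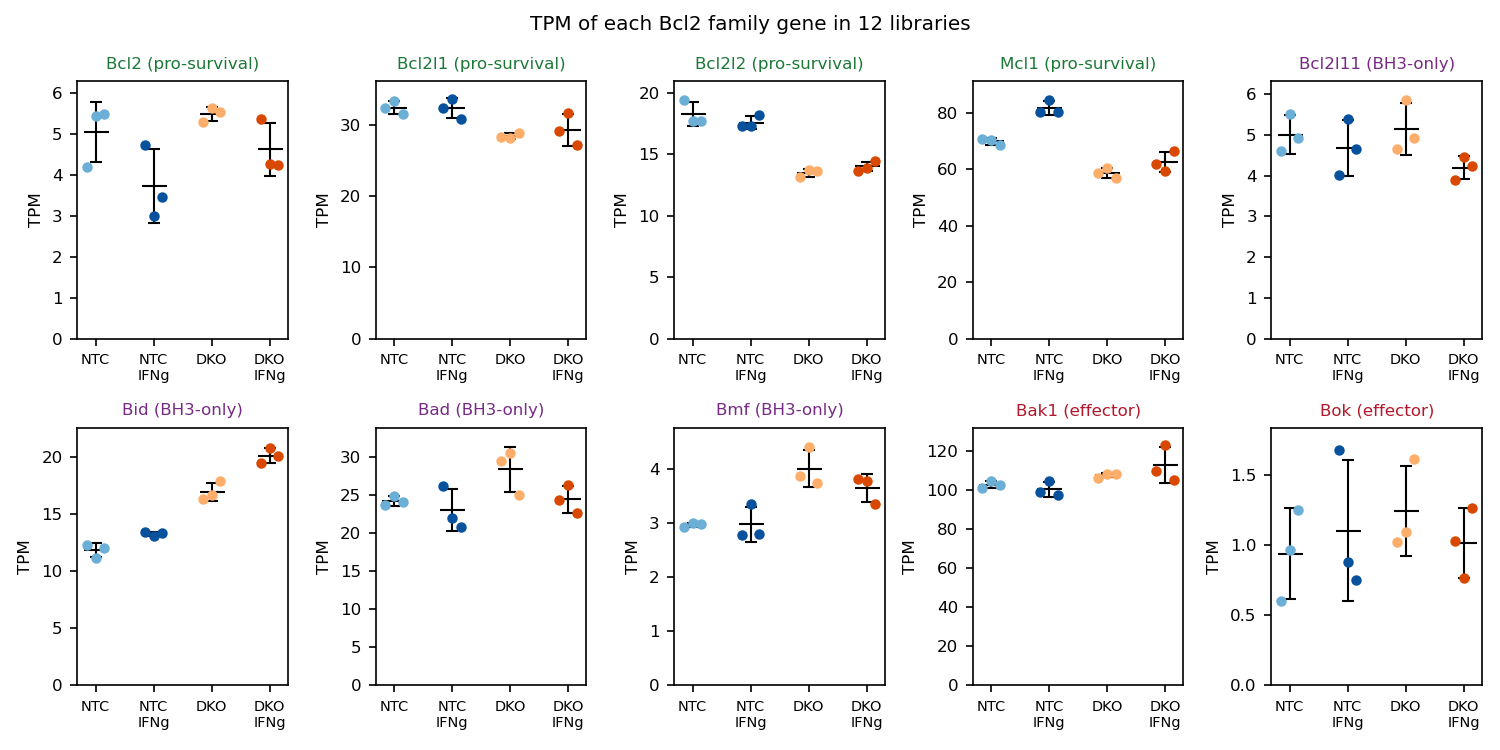
Level in TPM (vertical axis, from 0, on its own scale for each gene) of the 10 Bcl2 family genes in the 4 conditions (horizontal axis). Points are single libraries, the horizontal bar is the mean of 3 libraries and the error bars are 1 SD. All *Bid* points of DKO cells lie above those of NTC cells, all *Bcl2l2* and *Mcl1* points of DKO cells lie below, and the *Bok* points of all conditions overlap.

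The first question was how the family differed between DKO and NTC cells without stimulation. Pro-survival genes were lower and BH3-only genes higher in DKO cells where they were called. Of 10 genes, 5 passed the test, with *Bid* and *Bmf* higher and *Bcl2l2*, *Mcl1* and *Bcl2l1* lower. Among all tested genes, 36.4% passed in this comparison, 17% higher and 19.4% lower, so a count of 5 of 10 is not far from what any 10 tested genes would give. The median log2 difference was −0.22 over the 4 pro-survival genes, 3 of them below 0, and 0.22 over the 6 pro-death genes, all 6 above 0, against −0.01 over all tested genes. *Bcl2l11*, at 0.03, turned below 0 without untreated NTC replicate 1 or untreated DKO replicate 2, at −0.02 and −0.05.

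With IFNg in both genotypes, 4 of 10 genes passed the test, *Bid* and *Bak1* higher and *Bcl2l2* and *Mcl1* lower in DKO cells. The background was 43.3% of tested genes, 19.5% higher and 23.9% lower. Medians were −0.22 for pro-survival and 0.13 for pro-death genes, of which 4 of 6 were above 0, and −0.01 over all tested genes. Among the uncalled members, *Bad* turned from 0.09 to −0.06 once the trend over gene length and GC content was taken out. *Bok*, at −0.04, ranged from −0.27 to 0.15 over its 20 alternatives. The untreated and the treated comparison share no library, although the fit pools their spread. Whether their libraries came from the same edited populations is not stated, so passing in both may not be a repeat of the knockout. *Bid*, *Bcl2l2* and *Mcl1* passed in both and kept their calls under each of the 20 alternatives run for each comparison.

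*Mcl1* encodes a short-lived pro-survival protein and was the most abundant gene of its arm. Untreated NTC libraries held 71, 70.3 and 68.7 TPM, and untreated DKO libraries held 58.8, 60.5 and 56.9 TPM. With IFNg, NTC libraries held 80.3, 84.7 and 80.4 TPM and DKO libraries 62.0, 59.3 and 66.6 TPM. The DKO libraries all lay below the NTC libraries, treated or not, and the treated NTC libraries stood highest of all. The log2 difference between DKO and NTC was −0.25 (SE 0.0481, adjusted p = 0.00126) untreated and −0.38 (SE 0.0481, adjusted p = 3.95e-05) with IFNg.

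*Bcl2l2*, which encodes BCL-W, fell furthest among the pro-survival genes in untreated DKO cells. NTC libraries held 19.4, 17.8 and 17.7 TPM untreated and 17.3, 17.3 and 18.2 TPM with IFNg. DKO libraries held 13.1, 13.7 and 13.7 TPM untreated and 13.7, 13.9 and 14.5 TPM with IFNg. The genotypes did not overlap. The difference was −0.41 (SE 0.0558, adjusted p = 8.68e-05) untreated and −0.31 (SE 0.0558, adjusted p = 0.000680) with IFNg. Its exons share 594 bp, 13.3% of their length, with *Gm20521* on the same strand, which is listed at 1.10 to 2.18 TPM and was not called in either comparison.

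*Bcl2l1*, which encodes BCL-XL, was lower in untreated DKO cells by a smaller margin. NTC libraries held 32.5, 33.4 and 31.6 TPM untreated and 32.5, 33.8 and 30.9 TPM with IFNg. DKO libraries held 28.3, 28.2 and 28.9 TPM untreated and 29.2, 31.8 and 27.3 TPM with IFNg. The untreated groups did not overlap and the treated groups did. The untreated difference was −0.18 (SE 0.0574, adjusted p = 0.0226) and the treated one −0.14 (SE 0.0574, adjusted p = 0.0685). The untreated call was lost when the libraries were scaled to the same total, −0.14 (adjusted p = 0.101), and without NTC replicate 1 (0.0550), NTC replicate 2 (0.0763), DKO replicate 1 (0.0595) or DKO replicate 2 (0.0642), all limma adjusted p-values. The treated difference became a call without treated DKO replicate 2, −0.19 (adjusted p = 0.0151), and after a trend over gene length and GC content was taken out of each library, −0.20 (adjusted p = 0.00425). It was called in 3 of the 20 alternatives and ranged from −0.20 to −0.05 over them, with limma adjusted p up to 0.504.

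*Bcl2* was not called between genotypes. Its values were 4.20, 5.45 and 5.49 TPM in untreated NTC, 5.29, 5.63 and 5.53 TPM in untreated DKO, 4.73, 2.99 and 3.46 TPM in treated NTC and 5.36, 4.26 and 4.24 TPM in treated DKO libraries. The groups overlapped in both comparisons. The differences were 0.11 (adjusted p = 0.560) untreated, with a 95% interval of −0.18 to 0.39, and 0.26 (adjusted p = 0.130) with IFNg, with an interval of −0.03 to 0.55. Treated NTC replicate 1 was the highest of its group, and without it the treated difference passed the test at 0.41 (adjusted p = 0.0186). The treated difference passed in 1 of the 20 alternatives and ranged from 0.15 to 0.41 over them.

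*Bid* differed most of the 10 genes between the genotypes. Its protein is cut by caspase-8 or granzyme B into an active form that moves to mitochondria. NTC libraries held 12.3, 11.1 and 12 TPM untreated and 13.4, 13.0 and 13.3 TPM with IFNg, and DKO libraries held 16.3, 16.6 and 17.8 TPM untreated and 19.4, 20.8 and 20.1 TPM with IFNg. The lowest DKO library was above the highest NTC library. The difference was 0.49 (SE 0.0582, adjusted p = 2.96e-05) untreated and 0.57 (SE 0.0582, adjusted p = 7.02e-06) with IFNg, which ranked *Bid* at 516 and 475 from the highest of the 11663 tested genes. *Bid* exons share 628 bp, 17.7% of their length, with *Bcl2l13* on the opposite strand, and the libraries do not keep strand, so reads there cannot be told apart. *Bcl2l13* stood at 50.4 to 61.7 TPM and was itself higher in DKO cells, by 0.16 (adjusted p = 0.0299) untreated and 0.14 (adjusted p = 0.0485) with IFNg. How much of the *Bid* difference lies in the shared stretch was not tested.

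*Bmf*, whose protein is held at the cytoskeleton through a dynein light chain, was lowly expressed. NTC libraries held 2.92, 2.99 and 2.98 TPM untreated and 2.78, 3.34 and 2.79 TPM with IFNg. DKO libraries held 3.86, 4.39 and 3.74 TPM untreated and 3.80, 3.78 and 3.35 TPM with IFNg. DKO was above NTC without overlap in both comparisons, with the treated groups close to each other. The untreated difference was 0.33 (SE 0.0911, adjusted p = 0.0117), and it missed the threshold without untreated DKO replicate 2, at 0.28 (adjusted p = 0.0556). The treated difference of 0.23 (SE 0.0911, adjusted p = 0.0577) was not called. It passed without treated NTC replicate 2, 0.29 (adjusted p = 0.0300), without treated DKO replicate 3, 0.27 (adjusted p = 0.0421), with libraries scaled to the same total, 0.29 (adjusted p = 0.0199), and with median-ratio scaling, 0.24 (adjusted p = 0.0484). These were 4 of the 20 alternatives, over which it ranged from 0.14 to 0.29, with limma adjusted p up to 0.223.

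*Bad*, a BH3-only gene whose protein is silenced by phosphorylation and 14-3-3 binding, was the most abundant of the BH3-only genes. NTC libraries held 23.7, 24.9 and 24.1 TPM untreated and 26.2, 22 and 20.8 TPM with IFNg, and DKO libraries 29.5, 30.6 and 25.0 TPM untreated and 24.3, 26.3 and 22.7 TPM with IFNg. Untreated groups did not overlap, with DKO replicate 3 just above the highest NTC library, and treated groups overlapped. The untreated difference of 0.22 (SE 0.0888, adjusted p = 0.0723) missed the threshold. It passed without that DKO replicate 3, 0.30 (adjusted p = 0.0218), without treated NTC replicate 1, which enters only through the shared spread (adjusted p = 0.0403), in a fit of only the 6 untreated libraries (0.0430), with the replicate number as a block (0.0419), with libraries scaled to the same total (0.0393) and after a trend over gene length and GC content was taken out of each library (0.0399). In all, 7 of the 20 alternatives passed, and the untreated difference ranged from 0.16 to 0.30 over them, with limma adjusted p up to 0.233. The treated difference was 0.09 (adjusted p = 0.457). *Bad* exons share 524 bp, 20.5% of their length, with *Gpr137* on the opposite strand, which stood at 17.8 to 26.1 TPM and was not called, with log2 differences of −0.04 untreated and −0.07 with IFNg.

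*Bcl2l11* encodes BIM, which binds all pro-survival partners. Its values were 4.59, 5.52 and 4.91 TPM in untreated NTC, 4.66, 5.86 and 4.93 TPM in untreated DKO, 4.02, 5.39 and 4.65 TPM in treated NTC and 3.90, 4.46 and 4.22 TPM in treated DKO libraries. The genotypes overlapped in both comparisons. The differences were 0.03 (adjusted p = 0.851) untreated, with a 95% interval of −0.20 to 0.26, and −0.12 (adjusted p = 0.373) with IFNg, with an interval of −0.35 to 0.11.

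Of the effectors, *Bak1* was near 100 TPM in all conditions. NTC libraries held 101, 105 and 103 TPM untreated and 99.1, 105 and 97.4 TPM with IFNg, and DKO libraries 106, 108 and 109 TPM untreated and 110.0, 123 and 105 TPM with IFNg. Neither pair of groups overlapped, DKO being higher, although treated DKO replicate 3 was just above the highest treated NTC library. The difference was 0.07 (SE 0.0527, adjusted p = 0.358) untreated and 0.16 (SE 0.0527, adjusted p = 0.0227) with IFNg. The treated call did not survive leaving out NTC replicate 1 (adjusted p = 0.0598), NTC replicate 3 (0.0808) or DKO replicate 2, the highest library, at 0.10 (adjusted p = 0.0888). It was also lost in a fit of only the treated libraries (0.0717), and after the trend over gene length and GC content was taken out, at 0.05 (adjusted p = 0.335). *Bak1* exons share 614 bp, 25.5% of their length, with *Ggnbp1* on the opposite strand, which is listed at 0.851 to 2.28 TPM and was higher in treated DKO cells by 0.42 (adjusted p = 0.0319).

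*Bok*, which encodes another pore-forming relative, lay near the filter. Its values were 0.601, 0.968 and 1.25 TPM in untreated NTC, 1.02, 1.09 and 1.62 TPM in untreated DKO, 1.68, 0.880 and 0.751 TPM in treated NTC and 1.03, 0.764 and 1.26 TPM in treated DKO libraries. All groups overlapped. The intervals of its differences, −0.18 to 0.61 untreated and −0.44 to 0.36 with IFNg, were the widest of the family.

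**Figure D2:**
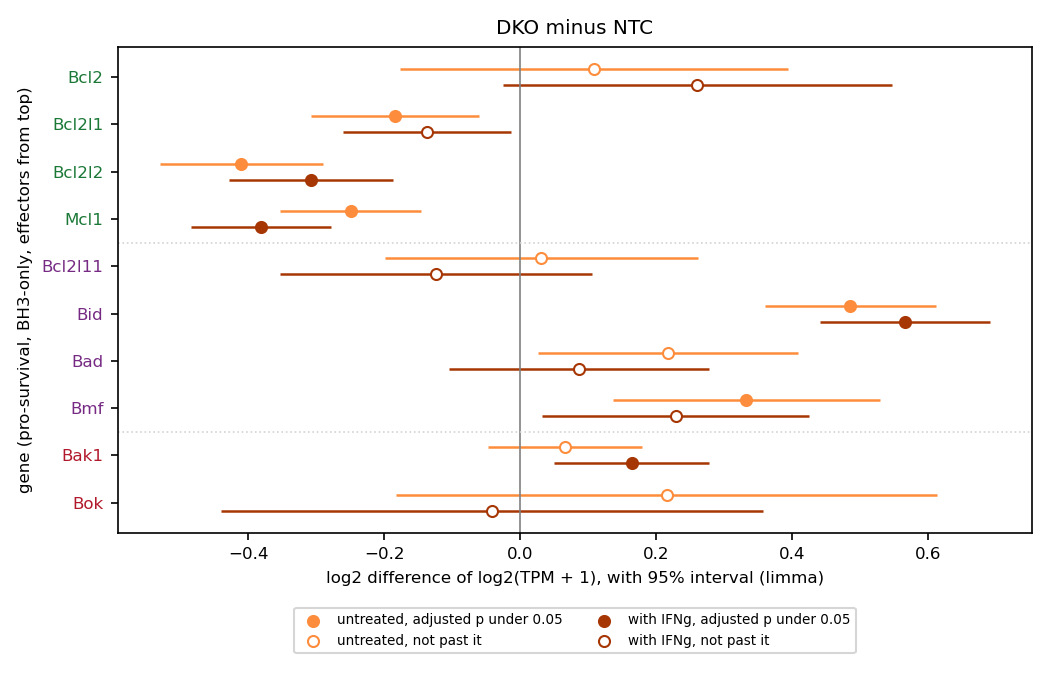
Difference between DKO and NTC cells on log2(TPM + 1) (horizontal axis, 0 is no difference) for each gene (vertical axis, pro-survival, BH3-only and effector genes from top to bottom), untreated in light and with IFNg in dark color. Bars are 95% intervals of the limma fit, and filled points passed an adjusted p of 0.05. *Bcl2l2* and *Mcl1* are filled left of 0 and *Bid* is filled right of 0 in both comparisons.

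To set the arms against each other, TPM were summed within a library and divided, which cancels any factor common to that library. The ratio of the 4 pro-survival to the 6 pro-death genes was 0.876, 0.844 and 0.834 in untreated NTC libraries and 0.917, 0.929 and 0.952 in treated ones. In DKO libraries it was 0.653, 0.647 and 0.650 untreated and 0.678, 0.610 and 0.718 with IFNg. All DKO libraries were thus below all NTC libraries, and the treated NTC libraries stood highest. Group means were 0.851 ± 0.0219, 0.932 ± 0.0180, 0.650 ± 0.00261 and 0.669 ± 0.0548 (SD, n = 3 each) in the same order. Both sums moved between genotypes: the pro-survival sum was 126 ± 2.07 TPM in untreated NTC and 106 ± 1.60 TPM in untreated DKO cells, and the pro-death sum 148 ± 2.62 and 163 ± 2.99 TPM. *Mcl1* and *Bak1* make up most of these sums. With each gene weighted alike, as the difference of mean log2(TPM + 1) between the arms, values were 1.09 ± 0.0383 and 1.03 ± 0.0574 in untreated and treated NTC and 0.686 ± 0.0272 and 0.746 ± 0.0499 in untreated and treated DKO cells. The genes were grouped with earlier results of these data known, so these ratios are descriptions without a test, and RNA ratios do not give protein ratios.

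**Figure D3:**
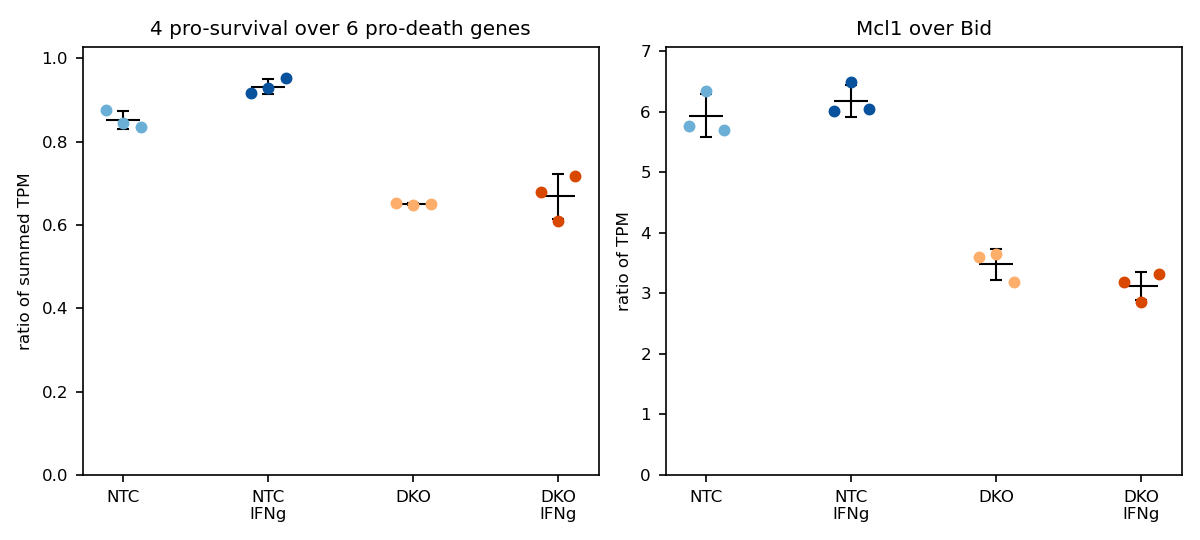
Ratio of summed TPM of the 4 pro-survival to the 6 pro-death genes (left) and of *Mcl1* to *Bid* TPM (right, a pair chosen after its values were seen) in each library, with the vertical axes from 0. Points are libraries, the horizontal bar is the mean of 3 and the error bars are 1 SD. DKO points lie below all NTC points in both panels, with *Mcl1* to *Bid* means of 5.94 ± 0.350 in untreated NTC and 3.48 ± 0.251 in untreated DKO cells.

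The second question was how the family responded to IFNg. The stimulus itself was visible in both genotypes, in *Irf1* and *B2m*, which IFNg signaling is known to induce. *Irf1* was higher with it by log2 differences of 1.14 in NTC and 0.93 in DKO cells, and *B2m* by 2.58 and 1.95. The *B2m* response was smaller in DKO cells, with a difference of responses of −0.63 (limma adjusted p = 0.0256). For *Irf1* that difference was −0.20 (limma adjusted p = 0.451) and not called. In NTC cells, 1 of 10 Bcl2 family genes passed the test, against 12.1% of all tested genes, and 7.31% that were higher. That gene was *Mcl1*, at a mean of 70.0 ± 1.18 TPM untreated and 81.8 ± 2.48 TPM treated (SD, n = 3), with a log2 difference of 0.22 (SE 0.0481, adjusted p = 0.0155). All treated libraries were above all untreated ones, but leaving out untreated replicate 3 or treated replicate 2 ended the call, at 0.21 (adjusted p = 0.0605) and 0.20 (adjusted p = 0.0635).

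In all, 3 of the 10 genes, *Mcl1* and another 2, had an unadjusted p under 0.05 in NTC cells, near the 31.8% of all tested genes that did. *Bid* was at 11.8 ± 0.636 TPM untreated and 13.2 ± 0.170 TPM treated, without overlap, a difference of 0.15 (SE 0.0582, adjusted p = 0.0923). *Bcl2* was at 5.04 ± 0.733 TPM untreated and 3.73 ± 0.90 TPM treated with overlapping libraries, a difference of −0.36 (SE 0.133, adjusted p = 0.0842), and it passed without treated NTC replicate 1, at −0.51 (adjusted p = 0.0215). *Bcl2* passed in 1 of the 20 alternatives. The other 7 genes had adjusted p-values of 0.55 or more. The median difference was −0.03 over the pro-survival and −0.02 over the pro-death genes, against 0.02 over all tested genes.

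In DKO cells, limma called 0 of 10 Bcl2 family genes after IFNg, against 0.78% of all tested genes. An unadjusted p under 0.05 was found for 3 of the 10 and for 9.59% of all tested genes. *Bid* was at 16.9 ± 0.804 TPM untreated and 20.1 ± 0.666 TPM treated, again without overlap, a difference of 0.23 (SE 0.0582, adjusted p = 0.112) that ranked at 324 from the highest of 11663. *Bcl2l11* was at 5.15 ± 0.629 TPM untreated and 4.20 ± 0.282 TPM treated without overlap, −0.24 (SE 0.107, adjusted p = 0.496). *Bad* was at 28.4 ± 2.97 TPM untreated and 24.4 ± 1.81 TPM treated with overlap, −0.21 (SE 0.0888, adjusted p = 0.476). The *Mcl1* libraries overlapped in DKO cells, with a difference of 0.09 (adjusted p = 0.594) and a 95% interval of −0.01 to 0.19.

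**Figure D4:**
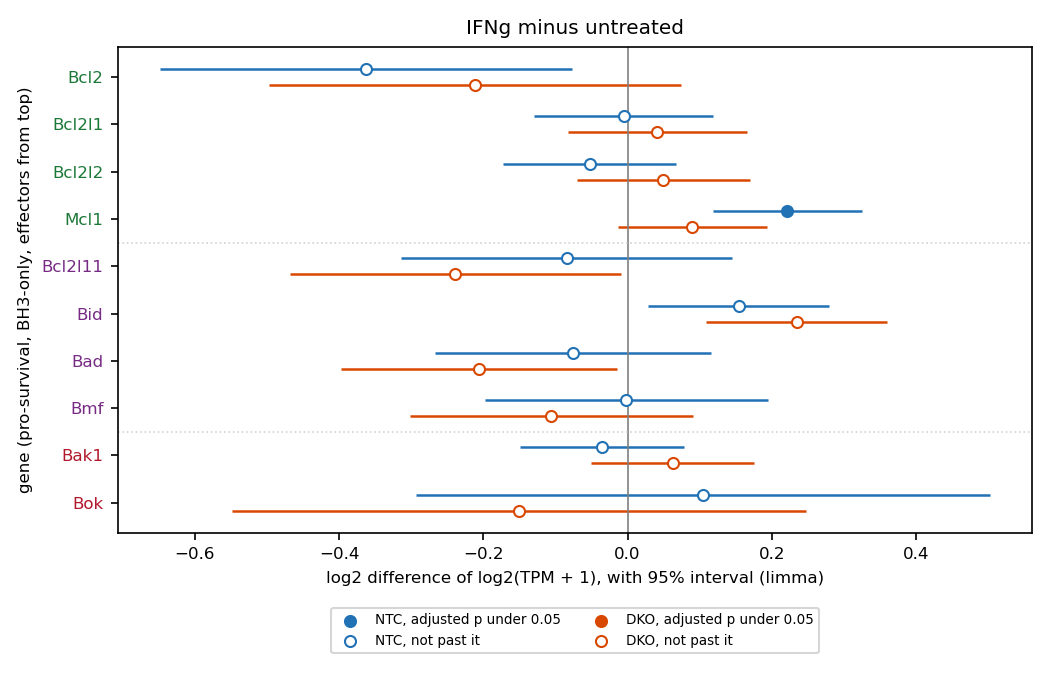
Difference between IFNg-treated and untreated cells on log2(TPM + 1) (horizontal axis, 0 is no difference) for each gene (vertical axis, pro-survival, BH3-only and effector genes from top to bottom), in NTC cells in blue and DKO cells in orange. Bars are 95% intervals of the limma fit. Of all points, only *Mcl1* in NTC cells is filled, which marks an adjusted p under 0.05.

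Whether the response differed between genotypes was tested directly, as DKO response minus NTC response. Here limma called 0 of 10 members, against 0.0343% of all tested genes, and an unadjusted p under 0.05 was found for 0 of 10, against 11.5% of all tested genes. *Mcl1* came closest, with −0.13 (SE 0.0680, adjusted p = 0.463) and a 95% interval of −0.28 to 0.01, so that a call in NTC and none in DKO cells does not show that the *Mcl1* response differed. For *Bid* the difference of responses was 0.08 (adjusted p = 0.706), with an interval of −0.10 to 0.26. Estimates for the other genes lay between −0.26 for *Bok* and 0.15 for *Bcl2*, and only intervals of this width can be given with 3 libraries per condition.

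Among 12 other Bcl2 homologues, 4 passed the filter, and *Bcl2a1a*, *Bcl2a1b*, *Bcl2a1d*, *Bcl2l14* and *Hrk* were listed at 0 in every library. In untreated DKO cells 1 of the 4 was higher and 2 lower, against 17% and 19.4% of all tested genes. In treated DKO cells 2 were higher and 2 lower, against 19.5% and 23.9%. *Bnip3* and *Bnip3l*, whose proteins act in mitophagy, were lower in DKO cells. *Bnip3* stood at 648 ± 15.6 TPM in untreated NTC and 567 ± 19.2 TPM in untreated DKO cells, a difference of −0.19 (adjusted p = 0.00229), and −0.31 (adjusted p = 5.16e-05) with IFNg. *Bnip3l* differed by −0.22 (adjusted p = 0.000644) and −0.34 (adjusted p = 1.71e-05). *Bcl2l13* was higher in both, as given above, and *Bcl2l12* was higher in treated DKO cells, by 0.44 (adjusted p = 0.00287), with 0.14 (adjusted p = 0.282) in untreated cells. In NTC cells IFNg came with higher *Bnip3*, 0.17 (adjusted p = 0.0230), and *Bnip3l*, 0.13 (adjusted p = 0.0429), and lower *Bcl2l12*, −0.36 (adjusted p = 0.0353). Of all tested genes, 12.1% were called in that comparison. Limma called 0 of the 4 with IFNg in DKO cells (0.78% of all tested genes), and 0 had an unadjusted p under 0.05 (9.59% of all). For the difference of responses 0 were called (0.0343% of all), and 1 had such a p (11.5% of all).

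Of 14 partners and modifiers of the family, 13 were tested. In untreated DKO cells *Dynll1*, which encodes the dynein light chain that holds BIM, was higher, at 493 ± 15.2 TPM against 381 ± 31.7 TPM in NTC, 0.37 (adjusted p = 6.68e-05). *Ywhab*, a 14-3-3 protein of the kind that holds phosphorylated BAD, was lower, at 162 ± 2.30 TPM against 203 ± 2.50 TPM, −0.32 (adjusted p = 0.000258). The other 11 were not called, while 36.4% of all tested genes were. With IFNg, DKO cells had higher *Dynll1*, 0.33 (adjusted p = 0.000162), and *Ywhag*, 0.25 (adjusted p = 0.00244). They had lower *Ywhab*, −0.40 (adjusted p = 3.86e-05), and *Becn1*, −0.15 (adjusted p = 0.0108). The background there was 43.3% of all tested genes. With IFNg in NTC cells, *Vdac2*, a channel that binds BAK at the outer membrane, was higher by 0.24 (adjusted p = 0.0101) and *Ywhaz* by 0.23 (adjusted p = 0.0230). Those were 2 of the 13, against 12.1% of all tested genes. With IFNg in DKO cells, limma called 0 of the 13 (0.78% of all tested genes), and 2 had an unadjusted p under 0.05 (9.59% of all). For the difference of responses 0 were called (0.0343% of all), and 1 had such a p (11.5% of all).

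The 9 genes listed as acting after the outer membrane opens were all tested. In untreated DKO cells 2 were higher and 2 lower, against 17% and 19.4% of all tested genes. *Apaf1*, the scaffold of the apoptosome, stood at 27.6 ± 0.616 TPM against 22.6 ± 0.132 TPM in NTC, 0.28 (adjusted p = 0.00156). *Aifm1* was also higher, 0.20 (adjusted p = 0.00890), while *Htra2*, −0.21 (adjusted p = 0.00193), and *Diablo*, −0.21 (adjusted p = 0.0180), both released to relieve inhibition of caspases, were lower. In treated DKO cells *Aifm1* was higher than in treated NTC cells, 0.21 (adjusted p = 0.00706). *Apaf1* was not called in that comparison, at 0.14 (limma adjusted p = 0.0566). *Diablo*, −0.26 (adjusted p = 0.00375), and *Htra2*, −0.19 (adjusted p = 0.00301), were lower. The background there was 43.3% of all tested genes. In NTC cells IFNg came with higher *Cycs*, cytochrome c, 0.20 (adjusted p = 0.0399), and lower *Htra2*, −0.16 (adjusted p = 0.0347). Of all tested genes, 12.1% were called in that comparison. Of the 9 genes, limma called 0 with IFNg in DKO cells (0.78% of all tested genes), and 3 had an unadjusted p under 0.05 (9.59% of all). For the difference of responses 0 were called (0.0343% of all), and 0 had such a p (11.5% of all).

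*Bid* had the widest range of condition means of the family, 0.72 on the log2 scale. The 3 tested genes whose pattern over the 12 libraries was most like that of *Bid* were *Slc39a6*, *Igf2r* and *Cd109*, each with a Pearson r of 0.976. The libraries share the genotype difference, so this likeness is a description of it.

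Promoter sequence is shown for the gene called after IFNg, *Mcl1*, and for *Bid*, the gene with the widest range. RefSeq windows of 300 bases, 250 before and 50 after each gene start, were searched on both strands. The GAS pattern TTCNNNGAA, an element known from IFNg-induced promoters, was in 8.3% of 32851 windows and in those of 0 of the 10 genes. The core of the interferon-stimulated response element, searched as GAAA, any 2 bases and GAAA again, was in 3.44% of windows and again in 0 of the 10 genes. The E-box CACGTG was in 7.15% of windows and in 0 of the 10 genes, and CATGTG, the form that MITF also binds, was in 14.2% of windows and in that of *Bcl2l1*. The GC box GGGCGG was in 35.7% of windows and in 9 of the 16 windows of the 10 genes, with at least 1 in 8 of the genes. No match says only that these letters are not in this window. The 250 bases before the start, from RefSeq on GRCm38.p6, are given 5′ to 3′ on the gene's strand with the GC box in capitals in either direction.
Mcl1: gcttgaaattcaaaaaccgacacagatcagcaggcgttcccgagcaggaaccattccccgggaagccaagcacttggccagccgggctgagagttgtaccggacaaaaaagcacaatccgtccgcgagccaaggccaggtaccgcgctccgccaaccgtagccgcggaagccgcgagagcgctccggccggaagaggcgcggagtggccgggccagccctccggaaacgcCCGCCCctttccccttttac
Bid: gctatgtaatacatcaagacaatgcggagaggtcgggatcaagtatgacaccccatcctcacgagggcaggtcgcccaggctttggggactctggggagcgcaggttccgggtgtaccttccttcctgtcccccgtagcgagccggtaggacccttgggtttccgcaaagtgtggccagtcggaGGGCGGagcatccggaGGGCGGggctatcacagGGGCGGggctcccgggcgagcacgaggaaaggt
The *Mcl1* window lies at chr3:95658471-95658720 on the plus strand and holds 1 GC box, and the *Bid* window lies at chr6:120916825-120917074 on the minus strand and holds 3. A match is a run of letters and not a measured binding site.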

How the data were processed

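RNA-seq libraries of 12 samples were analysed, 3 for each of 4 conditions. The authors made the deposited TPM with RSEM, version 1.2.4 in the submitters' processing notes. Reads were mapped to a transcriptome merged from Ensembl, UCSC and MISO annotations. Unaligned reads were passed to TopHat, on the mouse genome mm10 (GRCm38). The name of the table says counts, but the values are not whole. Libraries were poly(A)-selected and unstranded. TPM keep no read depth, so precision came from the spread between replicates, whose median SD over tested genes was 0.0690 to 0.0934 (log2). Per library, the listed genes summed to 805782 to 874612 TPM.

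A gene was kept if 3 or more libraries held 1 TPM or more of it. A limma fit (limma 3.58.1, R 4.3.3) on log2(TPM + 1) covered all 12 libraries, with 1 mean per condition and a prior variance following mean expression, and p-values were adjusted over the 11663 tested genes. Replicate numbers were not used as pairs. The members, their arms and the other gene lists were chosen with earlier results of these data known. All 10 members are named. From the other lists, called genes are named, up to 4 per list and comparison by size, and for the member with the widest range the 3 genes most like it. Alternatives were a pseudocount of 0.1, no filter, the replicate block, each library left out, only the libraries compared, 2 other scalings (same total, median ratio) and taking a trend over gene length and GC content out of each library. The count tests planned for a table of counts were not used. Positions and overlaps were read from GENCODE M21, which is not the annotation behind the TPM and holds 22251 of the 23022 listed genes. Promoters were read from RefSeq. Tables and figures used Python 3.11.15, pandas 2.3.3 and matplotlib 3.10.9. Splicing and protein were not analysed here. Some genes of the other lists are not reported here.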

Additional observations from a re-analysis of the deposited data

How the results depend on the processing

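The genotype differences of *Bid*, *Bcl2l2* and *Mcl1* kept their direction and their side of the threshold in both comparisons under the 20 alternatives run for each. Over the 50 tested values of the 10 genes, 989 alternative values were computed. Of these, 959 kept their side of the threshold, 14 lost a call and 16 gained one. The sign differed from the reported value in 31, spread over 13 values that were 0.11 or less in size. Neither the reported nor the alternative value was called in any of the 31. Many alternatives could not change a sign. Between 2 groups, the estimate is the same with no filter, with the replicate block and with only the libraries compared. It is also the same without a library of another group. These alternatives bear only on the threshold. The number of family genes called with IFNg in NTC cells, 1 as reported, ranged from 0 to 2 with 1 library left out: 0 without untreated NTC replicate 3 or treated NTC replicate 2 and 2 without treated NTC replicate 1. Between untreated DKO and NTC cells, 5 as reported, it ranged from 3 to 6, with 3 without untreated DKO replicate 2. In the other comparisons it moved by less than 1.5 times.

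Same-numbered replicates did not deviate together, with correlations from −0.179 to 0.119. In every other group at once, 0 of 12 libraries correlated best with their own number. Unpaired libraries would rarely meet that condition, so 0 is a usual outcome without pairs. A weak pairing could also give 0, which thus does not settle whether the numbers are pairs. With the replicate block, family genes called were 1 with IFNg in NTC, 0 with IFNg in DKO, 0 for the difference of responses, 6 between untreated and 4 between treated genotypes, and *Bad* in untreated cells was the added call. The block changed no other family call.

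The number of all tested genes called with IFNg in NTC cells, 1411, fell to 897 with no filter on low values, 466 after a trend over gene length and GC content was taken out and 361 with the replicate block as well. Leaving out treated NTC replicate 3 or 2 gave 317 and 328, leaving out untreated NTC replicate 3 or 2 gave 351 and 394, and the other 8 fits gave 1017 to 2023, so the background of 12.1% rests on single libraries. For the difference of responses, 4 genes became 10 with no filter, 2 with the block and 0 to 7 with 1 library left out. Scaling to the same total moved the share of called genes that were higher in DKO from 46.7% to 60.7% untreated and from 44.9% to 65.3% with IFNg. With IFNg in NTC cells that share was 60.5% as deposited, 45.1% at the same total and 48.8% under median-ratio scaling. The edgeR test planned for a table of counts was not run on TPM. The difference of responses needs all 12 libraries, so no smaller fit was made for it. TPM do not give depth, so low genes such as *Bok* are limited by the spread between 3 libraries.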
